A study of Mus musculus with 24 samples.

Results

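The genes described here are 10 markers of hepatic stellate cells, pericytes, smooth muscle cells and fibroblasts: Acta2, Tagln, Myh11, Des, Lrat, Reln, Pdgfrb, Postn, Dcn and Lum. They were taken as every probe set whose only gene symbol is a gene of this list, which gave 18 probe sets for all 10 genes among the 34945 probe sets with 1 symbol, or 10 of the 18193 genes tested. Messenger RNA was measured on Affymetrix oligonucleotide arrays in liver and hindleg skeletal muscle of newborn C57BL/6 mice on day 0 after birth. Their mothers were fed from day 1 of pregnancy until birth a low protein diet with 8% casein and 1% taurine in the drinking water (LP+tau in the labels, here LPtau), the low protein diet alone (LP), a normal protein diet with 20% casein and 1% taurine in the water (NP+tau in the labels, here NPtau), or the normal protein diet alone (NP). Taurine is a sulfur-containing compound of the diet and of bile. Each of the 8 groups of tissue and maternal diet held 3 arrays, called biological replicates in the labels, which do not say whether pups of a group had different mothers. The p-values therefore measure the spread between these samples.

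Hepatic stellate cells lie between the hepatocytes and the sinusoidal endothelium and store vitamin A as retinyl esters. When they turn into myofibroblasts they make smooth muscle actin and fibrous matrix. Pericytes and smooth muscle cells wrap the walls of vessels with contractile proteins and carry the receptor for platelet-derived growth factor, and fibroblasts of the portal tracts and the capsule lay down collagen with its binding proteins.

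Values are log2 expression values, so a difference of 1 is a doubling, and each gene is given by the probe set with its highest mean. Levels of different genes or of the 2 tissues are not set against each other, because probe sets differ in binding and the tissues were normalized separately. Array medians lay at 5.35 to 5.39 for liver and at 4.95 to 5.04 for muscle. Markers of the labelled tissues were at high values, with Apob, an apolipoprotein of hepatocytes, at 10.80 to 12.39 in liver and Myh8, the perinatal myosin heavy chain of skeletal muscle, at 13.67 to 14.46 in muscle. Sex was read from the level of a gene of the inactive X chromosome, and a Y-linked gene gave the same sex on all 24 arrays. By this, 1 of 3 arrays was female in LPtau and in NP, and 2 of 3 in LP and in NPtau, in each tissue. Among the liver arrays NPtau array 2 correlated least with the others, with a mean r of 0.976, and the highest such mean was 0.986.

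In newborn liver 5 of the 10 genes had lower values on every LP array than on every NP array. These were the contractile genes Acta2 and Tagln, the receptor gene Pdgfrb, the matrix gene Postn, and Reln, the gene of reelin. On every LPtau array the values of these genes were above those of every LP array. None of these differences passed the test across all genes. For Reln the margins were narrow, with LP up to 10.77, LPtau from 10.81 and NP from 10.83. The share of all genes with both orders together is not given here. In the comparison of LPtau with LP, 0 of the 10 genes were called by limma, a linear model per gene with a variance moderated over all genes, at a Benjamini-Hochberg adjusted p under 0.05, where 0.066% of all 18193 genes were called. All 10 differences were positive, against 48.4% of all genes, and 5 had an unadjusted p under 0.05 with higher values in LPtau, against 5.16% of all genes. The groups did not overlap, with LPtau higher, for 7 of the 10 genes and for 6.77% of all genes. The median difference of the 10 genes was 0.66, and that of all genes was -0.01. In the comparison of LP with NP, 0 of the 10 genes were called, where 2.34% of all genes were. Of the 10 differences 9 were negative, against 41.5% of all genes. Lower values in LP with an unadjusted p under 0.05 were found for 5 of the 10 genes and 9.53% of all genes, and the groups were apart, with LP lower, for 5 of the 10 genes and 10.9% of all genes. The median difference was -0.47 for the 10 genes and 0.05 for all genes. The 2 comparisons share the LP arrays, so their signs are linked. The 10 genes were chosen with earlier results of these data known, so the shares beside all genes are descriptions and not an independent test. In whole tissue, fewer cells of a type and less RNA per cell cannot be told apart.

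**Figure D1:**
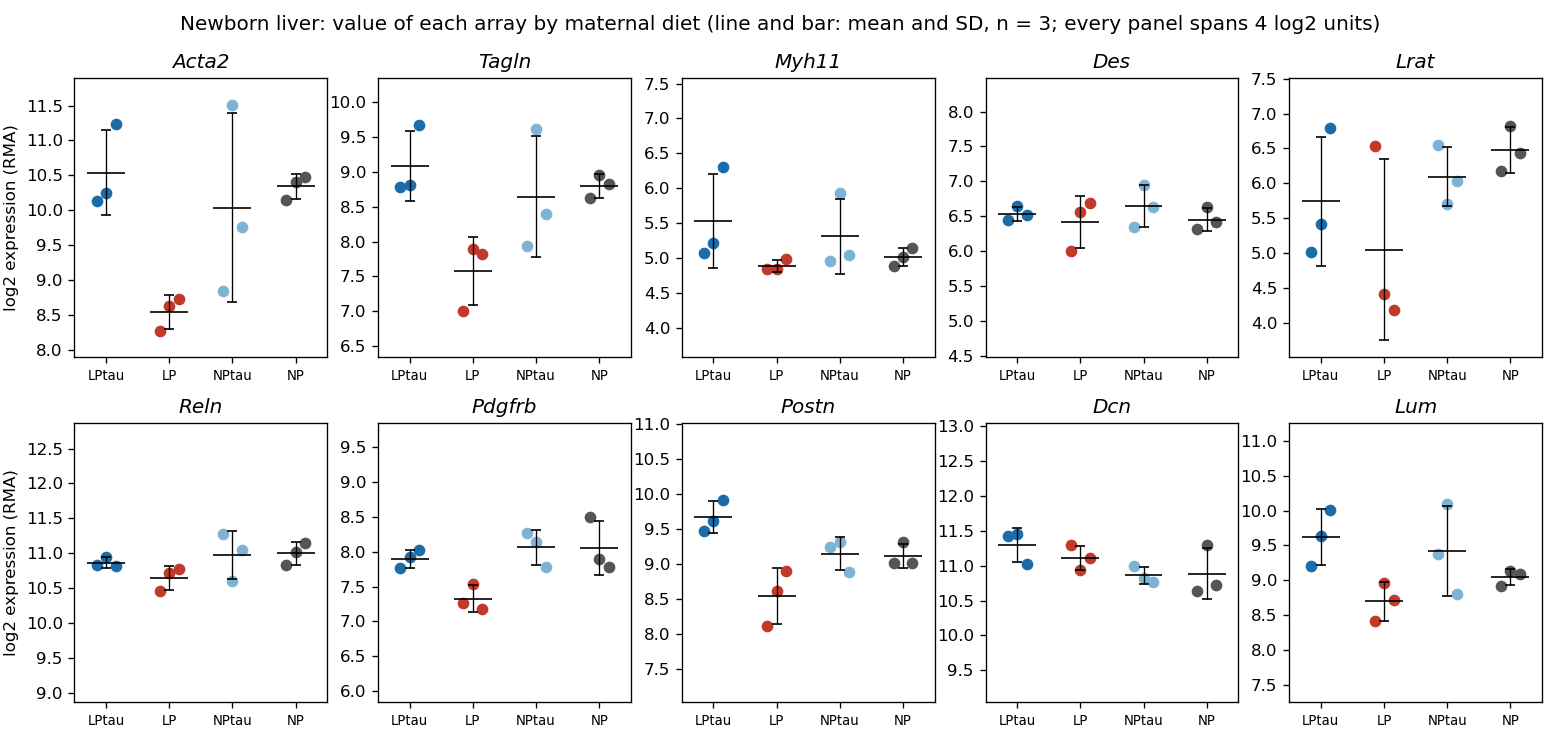
Log2 expression value of the 10 genes on each liver array, by maternal diet, with points for arrays, a line for the mean and a bar for the SD (n = 3), every panel spanning 4 log2 units. The LP arrays of Acta2 lie between 8.27 and 8.72 and the LPtau arrays between 10.13 and 11.24, while the values of Des and Dcn overlap between these groups.

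Acta2 encodes the alpha actin of smooth muscle and of myofibroblasts. Its log2 values in liver were 10.13, 10.24 and 11.24 in LPtau, 8.27, 8.63 and 8.72 in LP, 8.84, 11.51 and 9.76 in NPtau, and 10.14, 10.40 and 10.48 in NP. All LP arrays were below all arrays of the other 3 diets, and NPtau covered the widest range. The difference of LPtau minus LP was 2.00 (SE 0.53, 95% interval 0.83 to 3.17), or 4.0-fold, with an adjusted p of 0.276 by limma. For LP minus NP it was -1.80 (SE 0.53, 95% interval -2.97 to -0.63), or 3.48-fold lower, with an adjusted p of 0.0935. Leaving out NPtau array 2, which belongs to neither comparison and enters only through the shared estimate of the spread, brought the adjusted p to 0.0432 for LPtau minus LP and to 0.0200 for LP minus NP. That array had the highest Acta2 value in liver, 11.51. Over all genes, fits without 1 array called 0 to 269 for LPtau minus LP and 21 to 2013 for LP minus NP. Without LPtau array 3 the difference of LPtau minus LP was 1.65, with an adjusted p of 0.860.

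The naming of this Acta2 probe set marks probes that can also match transcripts of related genes, so the other actin genes are given beside it. Actg2, the gamma actin of visceral smooth muscle, differed by 1.14 (SE 0.63) for LPtau minus LP and by -0.73 for LP minus NP. For Actg1, a cytoplasmic actin, these differences were 0.41 (SE 0.22) and -0.34. Those of Acta1, the skeletal muscle actin, were 0.64 (SE 0.52) and 0.25, and Actb, the other cytoplasmic actin, differed by 0.03 (SE 0.09) and -0.08. Actc1, the cardiac actin, differed by 0.15 (SE 1.49) for LPtau minus LP and by -2.11 for LP minus NP. None of the 5 was called in either comparison. Acta2 has 2 other probe sets, with liver values of 3.65 to 3.98 and of 4.99 to 5.43, and their differences of LPtau minus LP were -0.06 and -0.04. The mean over the 3 Acta2 probe sets differed by 0.64 for LPtau minus LP and by -0.60 for LP minus NP.

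Serum response factor switches on genes of contractile proteins by binding the CArG box, a motif with an AT-rich centre. RefSeq promoter windows, from 250 bases before to 50 after a start site on GRCm38.p6, were at hand for 5 of the 10 genes (Acta2, Des, Lrat, Reln and Postn) as 6 windows. On either strand the CArG box was in 0 of these 6 windows and in 1.63% of 32851 windows of the same length. With 1 base of the AT-rich centre replaced by C or G, a form searched after the box itself had not been found, it was in 9.98% of all windows. That form stood in the Acta2 window, at 84 and 34 bases before the start site, and in the Lrat window, as CCAAGAAAGG at 223 bases before it. The Acta2 window, chr19:34255324-34255623 on the minus strand, is shown because Acta2 had the largest differences of the 10 genes in both comparisons, with the relaxed boxes CCCTATATGG and CCTTGTTTGG in capitals.
Acta2: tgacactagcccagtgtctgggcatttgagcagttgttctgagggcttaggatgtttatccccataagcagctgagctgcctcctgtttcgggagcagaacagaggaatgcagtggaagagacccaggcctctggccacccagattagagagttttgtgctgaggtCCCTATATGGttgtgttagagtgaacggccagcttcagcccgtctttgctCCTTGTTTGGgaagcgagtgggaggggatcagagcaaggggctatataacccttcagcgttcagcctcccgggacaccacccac
A match in these letters is a description and does not show binding.

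Tagln encodes transgelin, an actin-binding protein of smooth muscle. It had log2 values of 8.78, 8.81 and 9.67 in LPtau, 7.01, 7.90 and 7.82 in LP, 7.93, 9.61 and 8.39 in NPtau, and 8.62, 8.96 and 8.82 in NP. As for Acta2, the LP arrays were below all others, and LPtau array 3 and NPtau array 2 were the highest. The difference was 1.51 (SE 0.40) for LPtau minus LP, or 2.85-fold, with an adjusted p of 0.274. It was -1.23 (SE 0.40) for LP minus NP, or 2.34-fold lower, with an adjusted p of 0.115. Without NPtau array 2 the adjusted p for LP minus NP was 0.0463, where fits without 1 array called 21 to 2013 of all genes.

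Myh11 encodes the smooth muscle myosin heavy chain. Its liver values were 5.07, 5.21 and 6.31 in LPtau, 4.84, 4.84 and 4.99 in LP, 4.96, 5.93 and 5.04 in NPtau, and 4.89, 5.02 and 5.15 in NP. LPtau array 3 and NPtau array 2 again stood above the rest, and the other 10 arrays lay within 4.84 to 5.21. LPtau and LP did not overlap, with a difference of 0.64 (SE 0.31) and an adjusted p of 0.621, while LP minus NP was -0.13 (SE 0.31). The second Myh11 probe set had means of 4.35 in LP and 4.29 in NP, the opposite sign.

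Des encodes desmin, an intermediate filament protein of muscle that rodent stellate cells also make. It had log2 values of 6.45, 6.64 and 6.51 in LPtau, 6.00, 6.56 and 6.69 in LP, 6.35, 6.95 and 6.63 in NPtau, and 6.31, 6.63 and 6.41 in NP. All 4 diets overlapped. The difference of LPtau minus LP was 0.11 (95% interval -0.31 to 0.54) and that of LP minus NP was -0.03 (95% interval -0.46 to 0.39), with adjusted p of 0.898 and 0.936. The second Des probe set had means of 4.81 in LP and 4.71 in NP, the opposite sign.

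Pdgfrb encodes the beta receptor for platelet-derived growth factor, on pericytes and stellate cells. Its liver values were 7.76, 7.92 and 8.02 in LPtau, 7.26, 7.54 and 7.18 in LP, 8.27, 8.14 and 7.78 in NPtau, and 8.50, 7.89 and 7.78 in NP. The LP arrays were below those of every other diet, and the other 3 diets overlapped. LPtau minus LP was 0.57 (SE 0.19), or 1.49-fold, with an adjusted p of 0.442. LP minus NP was -0.73 (SE 0.19), or 1.66-fold lower, with an adjusted p of 0.0738, the lowest of the 10 genes in that comparison. The second Pdgfrb probe set, with liver values of 6.02 to 6.58, differed by 0.10 for LP minus NP, the opposite sign, and the mean of both by -0.32. Of the ligands and the companion receptor, Pdgfa, Pdgfb, Pdgfc, Pdgfd and Pdgfra, none was called for LPtau minus LP or LP minus NP. Pdgfb differed by 0.35 (SE 0.20) for LPtau minus LP and by -0.47 (SE 0.20) for LP minus NP, and Pdgfra by 0.44 (SE 0.22) and -0.35 (SE 0.22).

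Lrat encodes lecithin retinol acyltransferase, the enzyme that esterifies retinol for storage in stellate cells. It had log2 values of 5.02, 5.41 and 6.79 in LPtau, 6.54, 4.42 and 4.19 in LP, 6.55, 5.70 and 6.04 in NPtau, and 6.17, 6.82 and 6.44 in NP. LP arrays 2 and 3 were the lowest of the 12, and LP array 1 lay within the range of NP. The difference was -1.43 (SE 0.59) for LP minus NP, with an adjusted p of 0.183, and 0.69 (SE 0.59) for LPtau minus LP, with an adjusted p of 0.778. Without LP array 1 the LP minus NP difference was -2.18, with an adjusted p of 0.0177. Over all genes that fit called 2013 in this comparison, the most of any fit without an array, against 425 with all arrays. Without LP array 3 the Lrat difference was -0.999, with an adjusted p of 0.461. The second Lrat probe set, with liver values of 4.38 to 5.26, differed by -0.14 for LP minus NP, and the mean of both by -0.79. For LPtau minus LP the second probe set had the opposite sign, with means of 4.65 in LPtau and 4.69 in LP.

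Reln encodes reelin, a secreted glycoprotein known from the layering of the brain cortex and made in liver by stellate cells. Its liver values were 10.83, 10.95 and 10.81 in LPtau, 10.45, 10.71 and 10.77 in LP, 11.27, 10.60 and 11.05 in NPtau, and 10.83, 11.01 and 11.15 in NP. LP lay below LPtau and below NP, and within reach of the lowest NPtau array. LPtau minus LP was 0.22 (SE 0.16), with an adjusted p of 0.734, and LP minus NP was -0.35 (SE 0.16), with an adjusted p of 0.230. The second Reln probe set had liver means of 4.23 in LPtau and 4.29 in LP, the opposite sign. The genes for reelin receptors and the adaptor Dab1 were not called either. The receptor gene Vldlr differed by 0.49 (SE 0.59) for LPtau minus LP and -1.25 (SE 0.59) for LP minus NP, the receptor gene Lrp8 by -0.13 and 0.09, and Dab1 by -0.03 and 0.14.

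Postn encodes periostin, a secreted matrix protein of fibroblasts. Its liver values were 9.47, 9.62 and 9.92 in LPtau, 8.11, 8.61 and 8.90 in LP, 9.24, 9.32 and 8.88 in NPtau, and 9.01, 9.31 and 9.02 in NP. All LPtau arrays were above all arrays of the other diets, and all LP arrays were below all NP arrays. LPtau minus LP was 1.13 (SE 0.20, 95% interval 0.68 to 1.58), or 2.19-fold, with an adjusted p of 0.0927, the lowest of the 10 genes in that comparison. Without LP array 1, the lowest of all, the difference was smaller, at 0.91, and the adjusted p was 0.0415. Over all genes that fit called 269 in this comparison, the most of any fit without an array, against 12 with all arrays. Without LPtau array 3 the Postn difference was 1.00 with an adjusted p of 0.366. LP minus NP was -0.58 (SE 0.20), or 1.49-fold lower, with an adjusted p of 0.138. LPtau minus NP was 0.55 (SE 0.20), with an adjusted p of 0.683. Of the 2 Postn windows in the RefSeq table, chr3:54360857-54361156 on the plus strand is shown because Postn is the gene whose difference between the tissues was called, and it holds TATAAA, in capitals, which is in 13.6% of all windows on the strand of the gene or its opposite.
Postn: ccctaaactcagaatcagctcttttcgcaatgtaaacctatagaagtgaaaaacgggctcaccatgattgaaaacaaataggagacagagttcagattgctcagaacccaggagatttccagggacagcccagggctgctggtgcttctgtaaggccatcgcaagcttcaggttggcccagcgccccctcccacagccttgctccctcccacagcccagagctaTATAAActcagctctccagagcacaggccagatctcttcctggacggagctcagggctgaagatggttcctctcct
The other Postn window, chr3:54359017-54359316, does not hold these letters.

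Dcn and Lum encode decorin and lumican, small leucine-rich proteoglycans that bind collagen fibrils. Dcn had log2 values of 11.42, 11.45 and 11.02 in LPtau, 11.29, 10.94 and 11.11 in LP, 11, 10.82 and 10.77 in NPtau, and 10.63, 11.30 and 10.72 in NP. Those of LP and NP overlapped, as did those of LPtau and LP, and Dcn was the only 1 of the 10 genes with a positive difference of LP minus NP, 0.23 (SE 0.18), with an adjusted p of 0.475. LPtau minus LP was 0.19 (SE 0.18). The second Dcn probe set had means of 4.37 in LP and 4.56 in NP, the opposite sign for LP minus NP. Lum had log2 values of 9.21, 9.64 and 10.01 in LPtau, 8.41, 8.96 and 8.72 in LP, 9.37, 10.09 and 8.81 in NPtau, and 8.92, 9.13 and 9.09 in NP. LPtau was above LP and above NP on every array. The difference was 0.92 (SE 0.29) for LPtau minus LP, or 1.90-fold, with an adjusted p of 0.411, and -0.36 (SE 0.29) for LP minus NP, with an adjusted p of 0.481.

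Of 10 other small leucine-rich proteoglycans and their relatives, 0 were called in either comparison. Their medians were 0.17 for LPtau minus LP and -0.04 for LP minus NP. Biglycan (Bgn) differed by 0.64 (SE 0.17) for LPtau minus LP and by -0.25 for LP minus NP, with an adjusted p of 0.296 for the first. Osteoglycin (Ogn) differed by 0.64 (SE 0.26) and -0.27, asporin (Aspn) by 0.73 (SE 0.34) and -0.17, and fibromodulin (Fmod) by 0.41 (SE 0.36) and -0.37. Keratocan (Kera) and epiphycan (Epyc), known from cornea and cartilage, differed by -0.07 and -0.24 for LPtau minus LP and by 0.29 and 0.27 for LP minus NP.

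The same comparisons were made with taurine under normal protein and across the protein levels. For NPtau minus NP, 0 of the 10 genes were called by limma, as were 0% of all genes, 0 had an unadjusted p under 0.05, against 2.75% of all genes, and the groups were apart for 0 of the 10, against 7.84% of all genes. The median difference was -0.00. The 95% intervals were wide for the contractile genes, at -1.47 to 0.86 for Acta2, and narrower for Postn, at -0.42 to 0.48. For LPtau minus NP, 0 were called, as were 0% of all genes, and Postn (0.55) and Dcn (0.41) had an unadjusted p under 0.05 with higher values in LPtau, against 4.65% of all genes. The groups were apart, with LPtau higher, for Postn and Lum, or 2 of the 10, against 12.2% of all genes. For LPtau minus NPtau, 0 were called, as were 0% of all genes. Postn (0.52) and Dcn (0.43) again had an unadjusted p under 0.05, against 3.48% of all genes with higher values. Whether the taurine difference depended on the protein level was tested as LPtau minus NPtau less LP minus NP. No gene was called (0% of all genes), and 8.46% of all genes had an unadjusted p under 0.05. Of the 10 genes, Acta2 at 2.30 (SE 0.75), Tagln at 1.67 (SE 0.57) and Postn at 1.10 (SE 0.29) had an unadjusted p under 0.05 with positive values, against 4.06% of all genes, with adjusted p of 0.548, 0.548 and 0.433.

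Ordered by the mean of a diet in liver, LP was the lowest of the 4 diets for 9 of the 10 genes, and NPtau was the lowest for Dcn. The step from LP to the next diet was 1.50 for Acta2 and 1.07 for Tagln, with NPtau next, and arrays of the 2 diets did not overlap. It was 0.58 to NP for Postn, 0.57 to LPtau for Pdgfrb and 0.22 to LPtau for Reln, also without overlap. Above that step the diets overlapped for these 5 genes, with the exception of Postn, where LPtau stood 0.52 above NPtau without overlap. For Myh11, Des, Lrat, Dcn and Lum every pair of neighbours in the order overlapped.

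The 10 genes did not vary as a single block over the liver arrays. Of 45 pairs, 9 correlated over the 12 arrays with an adjusted permutation p under 0.05 by Pearson's r and by Spearman's rho, and these 9 were among Acta2, Tagln, Myh11, Postn and Lum. The permutations shuffled all 12 arrays without regard to diet, so these p-values include differences between diets that a pair shares. Acta2 and Tagln followed each other most closely, with r = 0.975 and rho = 0.972, an adjusted permutation p of 0.00045 over the 45 pairs, the smallest that this number of permutations can give, and r = 0.987 without the 2 arrays farthest from the median of Acta2. Within diets, after each diet's mean was taken off, r was 0.943. For Postn and Lum r was 0.831 (rho 0.881), 0.672 without the 2 farthest arrays and 0.705 within diets. Acta2 and Postn had r = 0.749 (rho 0.755), 0.542 without the 2 farthest arrays and 0.415 within diets. Acta2 and Pdgfrb had r = 0.570 with an adjusted permutation p of 0.180, and -0.04 within diets. Reln, Lrat, Des, Dcn and Pdgfrb were in none of the 9 pairs. LP array 1 shows the contrast between genes, with the lowest Acta2, Tagln and Postn of all liver arrays and the fourth highest Lrat.

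**Figure D2:**
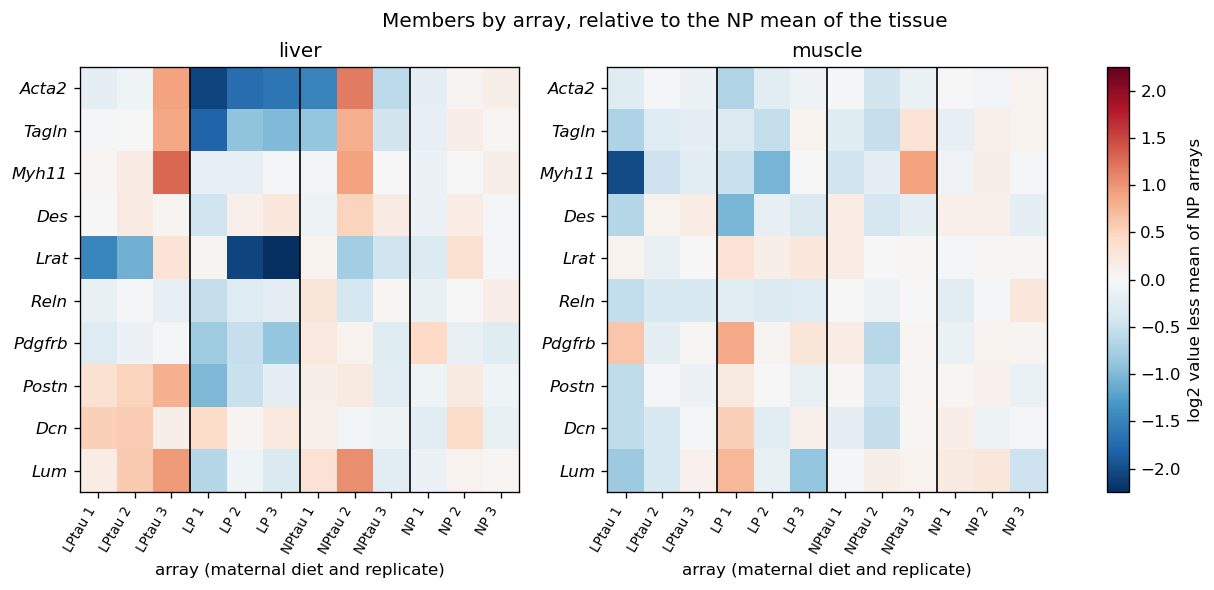
Log2 value of each of the 10 genes on each array less the mean of the 3 NP arrays of the same tissue, with liver on the left and muscle on the right, columns grouped by maternal diet and the colour scale in log2 units. In liver the Acta2 and Tagln rows are blue on all LP arrays and red on LPtau array 3 and NPtau array 2, and the Lrat row is dark blue on LP arrays 2 and 3 but not on LP array 1.

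The genes outside the list whose liver values followed the mean of the 10 most closely over the 12 arrays were Dpysl3 (r = 0.944), Thbd (r = 0.942), Mcam (r = 0.934), Samd4 (r = 0.921) and Tppp (r = 0.920). These are descriptions over arrays that share their diets and processing. The r includes differences between diets, so the signs of the differences below follow largely from how these genes were picked. Within diets r was 0.817, 0.809, 0.789, 0.766 and 0.767, in the same order. Thbd encodes thrombomodulin of the vessel lining and Mcam a cell adhesion molecule of pericytes and endothelium. For LPtau minus LP their log2 differences were 1.54 for Dpysl3, 1.11 for Thbd, 0.47 for Mcam, 1.05 for Samd4 and 0.35 for Tppp. For LP minus NP the values were -1.41 for Dpysl3, -0.94 for Thbd, -0.36 for Mcam, -0.69 for Samd4 and -0.34 for Tppp.

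Wider lists of the same cell types were described by the same comparisons in liver, where 0.066% of all genes were called for LPtau minus LP and 2.34% for LP minus NP. These lists too were chosen with earlier results of these data known, so their shares are descriptions and not an independent test. Of 23 genes of fibroblasts and their matrix, 0 were called for LPtau minus LP, 15 had an unadjusted p under 0.05 with higher values in LPtau, against 5.16% of all genes, and 21 had a positive difference, against 48.4% of all genes. Their median was 0.81, and that of all genes was -0.01. Sparc, a collagen-binding matrix protein, differed by 0.85 (SE 0.18, adjusted p 0.169) and the collagen gene Col5a2 by 1.02 (SE 0.25, adjusted p 0.220). For LP minus NP the median of these 23 genes was -0.28, and Col14a1, a collagen that sits on fibrils, fell by 1.00 (SE 0.19, adjusted p 0.0303) as the 1 gene called. Lower values in LP with an unadjusted p under 0.05 were found for 3 of the 23, against 9.53% of all genes. Of 17 other genes of smooth muscle and pericytes, 0 were called in either comparison, with medians of 0.39 for LPtau minus LP and -0.36 for LP minus NP. With an unadjusted p under 0.05, 5 were higher in LPtau than in LP, against 5.16% of all genes. By the same rule 3 were lower in LP than in NP, against 9.53%. Notch3, a receptor of vessel wall cells, differed by 0.60 (SE 0.17) and Mcam by 0.47 (SE 0.13) for LPtau minus LP, with adjusted p of 0.320 and 0.314.

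Of 17 other stellate cell genes, 1 was called for LP minus NP, Colec11, a collectin gene, which fell by 0.90 (SE 0.17, adjusted p 0.0303). The medians were 0.13 for LPtau minus LP and -0.27 for LP minus NP. With an unadjusted p under 0.05, 4 were higher in LPtau than in LP, against 5.16% of all genes. By the same rule 6 were lower in LP than in NP, against 9.53%. Ednrb, an endothelin receptor gene, differed by 1.05 (SE 0.22, adjusted p 0.160) for LPtau minus LP. Of 12 genes of retinoid storage and signalling 10 had a positive difference of LP minus NP, against 58.5% of all genes, with a median of 0.22, and Cyp26a1, which breaks down retinoic acid, rose by 0.95 (SE 0.22, adjusted p 0.0493). Its LPtau minus LP difference was -0.83 (SE 0.22, adjusted p 0.253), so that it ran against Lrat in sign in both comparisons. Of 17 genes of signalling by platelet-derived growth factor and by transforming growth factor beta, 0 were called, with medians of 0.33 for LPtau minus LP and -0.17 for LP minus NP. The ligand gene Tgfb3 differed by 1.75 (SE 0.38, adjusted p 0.169), the receptor gene Tgfbr1 by 0.62 (SE 0.14, adjusted p 0.172) and the ligand gene Tgfb1 by 0.39 (SE 0.20) for LPtau minus LP. Serum response factor itself (Srf) differed by -0.10 (SE 0.13) and its coactivator gene Myocd by 0.06 (SE 0.16) for LPtau minus LP, with 0 of 10 genes of that list called and medians of 0.30 for LPtau minus LP and -0.22 for LP minus NP. Of 6 genes of reelin reception 0 were called, with medians of 0.21 and -0.03 in these comparisons.

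Markers of other liver cells are given beside these values. Of 18 endothelial genes 4 were called lower for LP minus NP, where 2.34% of all genes were called in either direction, among them Pecam1, which fell by 0.80 (SE 0.14, adjusted p 0.0211), Esam, which fell by 1.07, and Cdh5, which fell by 1.11. The mean of the list relative to the NP arrays was -0.17 to 0.19 in LPtau, -0.51 to -0.48 in LP, -0.16 to 0.12 in NPtau and -0.15 to 0.08 in NP. The same mean over the 10 genes was -0.11 to 0.51 in LPtau, -0.70 to -0.61 in LP, -0.20 to 0.35 in NPtau and -0.12 to 0.13 in NP, so that LP was apart from the other diets for both lists. Of the wider lists, LP was apart for fibroblasts and matrix, with LP up to -0.12 and the other diets from -0.06. For smooth muscle and pericytes LP, at -0.33 to -0.16, overlapped with NPtau, which began at -0.26. For stellate cells LP reached -0.207 and overlapped with LPtau, which began at -0.209. Over 9 mesothelial genes, of which 0 were called, the ranges overlapped, at -0.11 to 0.32 in LPtau, -0.61 to -0.06 in LP, -0.39 to 0.53 in NPtau and -0.13 to 0.20 in NP. Over 8 hepatocyte genes, of which 0 were called, they were 0.11 to 0.23 in LPtau, 0.01 to 0.06 in LP, -0.47 to -0.05 in NPtau and -0.22 to 0.14 in NP. The part of endothelial or mesothelial cells in the values of the 10 genes was not tested.

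**Figure D3:**
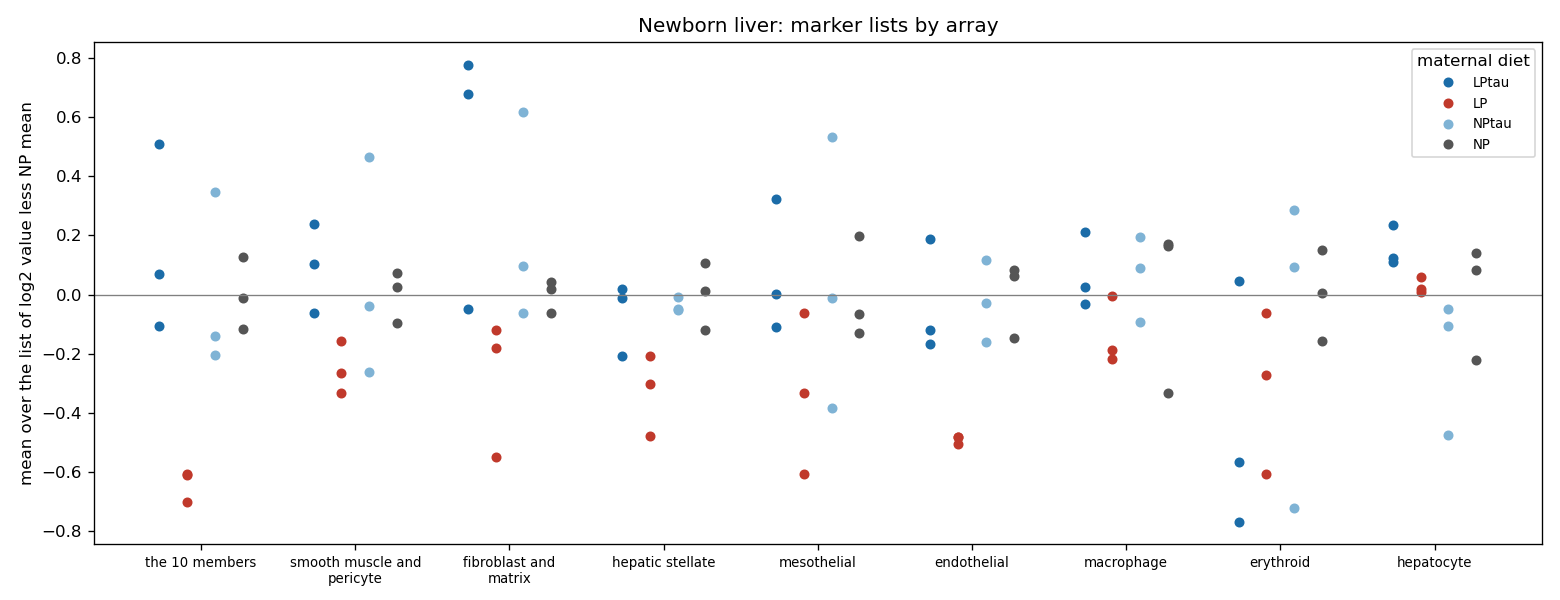
Mean over a marker list of the log2 value less the mean of the NP arrays, a point for each liver array, for the 10 genes and 8 other lists, with maternal diets side by side in the order LPtau, LP, NPtau, NP. The LP arrays lie at -0.70 to -0.61 for the 10 genes and at -0.51 to -0.48 for the endothelial list, below all arrays of the other diets, and at 0.01 to 0.06 for the hepatocyte list.

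No gene of the 10 was called in any comparison within hindleg muscle. For LPtau minus LP, 0 of the 10 were called, where 0.022% of all genes were. Lrat had an unadjusted p under 0.05 at -0.26 (SE 0.11), against 6.84% of all genes with lower values, and the median was -0.25 for the 10 genes and 0.02 for all genes. The muscle values of Lrat lay near the low end of the arrays, and its second probe set had the opposite sign, with means of 3.59 in LPtau and 3.44 in LP. For LP minus NP, 0 were called, where 0.126% of all genes were, and Acta2 at -0.35 (SE 0.16) had an unadjusted p under 0.05, against 6.22% of all genes with lower values. The median was -0.18 for the 10 genes and -0.01 for all genes. For NPtau minus NP, 0 of the 10 were called and 0 had an unadjusted p under 0.05, where 0% and 0.484% of all genes did. For LPtau minus NP and for LPtau minus NPtau, 0 were called, as were 0% of all genes. Reln had an unadjusted p under 0.05 in both, at -0.41 (SE 0.13) and -0.38 (SE 0.13), against 2.16% and 2.4% of all genes with lower values. The test of whether the taurine difference depended on protein level called 0 of the 10 and 0% of all genes, and 0 of the 10 had an unadjusted p under 0.05, against 6.56% of all genes.

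Acta2 in muscle had log2 values of 11.73, 11.97 and 11.87 in LPtau, 11.32, 11.75 and 11.89 in LP, 11.97, 11.58 and 11.86 in NPtau, and 12, 11.93 and 12.08 in NP. The LP arrays were below the NP arrays by a narrow margin and overlapped with LPtau. This probe set can also match related actins, and their part in the muscle values was not tested. Tagln was 8.81, 9.21 and 9.28 in LPtau, 9.20, 8.97 and 9.58 in LP, 9.22, 8.99 and 9.81 in NPtau, and 9.32, 9.62 and 9.58 in NP, with LPtau and LP overlapping. Des was 11.59, 12.31 and 12.40 in LPtau, 11.20, 12.04 and 11.90 in LP, 12.40, 11.85 and 12.02 in NPtau, and 12.34, 12.35 and 12.01 in NP. Here desmin is a protein of the muscle fibres, and LP minus NP was -0.52 (SE 0.26), with an adjusted p of 0.549. Myh11 varied most, with 5.86, 7.40 and 7.61 in LPtau, 7.37, 6.82 and 7.85 in LP, 7.42, 7.66 and 8.77 in NPtau, and 7.79, 7.99 and 7.82 in NP. Its LPtau arrays lay below its NP arrays, with a difference of -0.91 (SE 0.46) and an adjusted p of 0.840.

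Postn in muscle was 13.06, 13.61 and 13.50 in LPtau, 13.85, 13.64 and 13.47 in LP, 13.66, 13.19 and 13.67 in NPtau, and 13.68, 13.74 and 13.49 in NP. The diets overlapped, and LPtau minus LP was -0.26 (SE 0.18), opposite in sign to liver. Dcn was 12.04, 12.27 and 12.56 in LPtau, 13.13, 12.37 and 12.71 in LP, 12.39, 12.06 and 12.65 in NPtau, and 12.76, 12.50 and 12.55 in NP, with LPtau minus LP at -0.45 (SE 0.21). Lum was 10.80, 11.26 and 11.71 in LPtau, 12.35, 11.44 and 10.74 in LP, 11.57, 11.74 and 11.68 in NPtau, and 11.82, 11.86 and 11.15 in NP. Its LP arrays spanned the values of all other diets. Pdgfrb was 10.40, 9.58 and 9.81 in LPtau, 10.64, 9.85 and 10.07 in LP, 9.96, 9.15 and 9.82 in NPtau, and 9.64, 9.87 and 9.84 in NP, with LP minus NP at 0.40 (SE 0.27), opposite in sign to liver.

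Reln in muscle was 7.55, 7.77 and 7.76 in LPtau, 7.87, 7.80 and 7.82 in LP, 8.11, 8.00 and 8.12 in NPtau, and 7.88, 8.08 and 8.36 in NP. The LPtau arrays were below all others, and both low protein groups were below both normal protein groups. Lrat, whose storage role belongs to stellate cells of the liver, ranged from 3.26 to 3.75 over the 12 muscle arrays. Muscle LP array 1 and LPtau array 1 correlated least with the other muscle arrays, with a mean r of 0.956 and 0.962, where the other arrays had 0.976 to 0.984. Without these 2 arrays 0 of the 10 genes were called in any muscle comparison, while 293 of all 18193 genes were called for LP minus NP and 36 for LPtau minus LP. Over 12 genes of skeletal muscle fibres, the mean relative to NP was -0.45 to 0.05 in LPtau, -0.83 to -0.16 in LP, -0.54 to 0.09 in NPtau and -0.04 to 0.03 in NP, and the share of this in the muscle values was not tested.

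**Figure D4:**
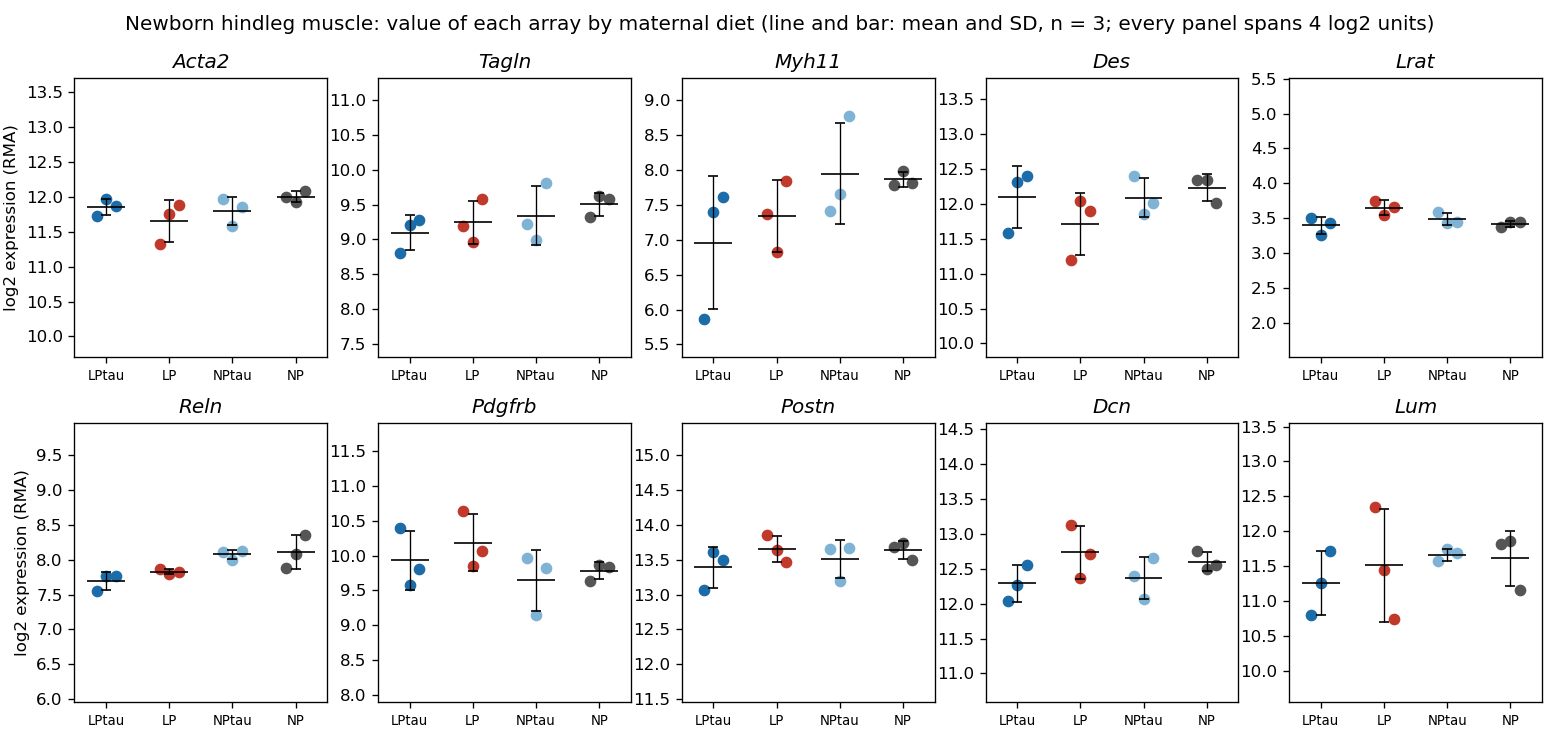
Log2 expression value of the 10 genes on each hindleg muscle array, by maternal diet, with points for arrays, a line for the mean and a bar for the SD (n = 3), every panel spanning 4 log2 units as in liver. Values of Acta2 lie between 11.32 and 12.08 over all diets, and the lowest Myh11 value, 5.86, is an LPtau array.

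Postn was the 1 gene of the 10 whose taurine difference under low protein differed between the tissues in the test across all genes. The difference of LPtau minus LP was 1.13 in liver and -0.26 in muscle, and the liver difference less the muscle difference was 1.39 (SE 0.28, 95% interval 0.80 to 1.98), with an adjusted p of 0.0409 by limma. This was 1 of 10 genes, where 0.258% of all genes were called. Positive values with an unadjusted p under 0.05 were found for 6 of the 10 genes and 7.21% of all genes, with Acta2 at 1.79 (SE 0.59), Tagln at 1.66 (SE 0.49), Lum at 1.18 (SE 0.49), Pdgfrb at 0.82 (SE 0.35) and Dcn at 0.63 (SE 0.29) beside Postn. The median was 0.99 for the 10 genes and 0.00 for all genes. For Acta2 the part of related actins in the values of either tissue was not tested. The joint fit took the 24 arrays as independent, although same-numbered liver and muscle arrays of a diet matched in sex in 12 of 12 cases. The call for Postn was close to the threshold, with adjusted p of 0.0260 to 0.187 over all alternatives. It was kept in 10 of the 24 fits that left out an array, where its value was 1.18 to 1.57, and in 7 of 9 other fits. The 14 arrays without which it was lost were liver NP 1, 2 and 3, NPtau 1, LP 2, LPtau 2 and LPtau 3, and muscle NP 1, 2 and 3, LP 1 and 3, and LPtau 1 and 3, with the highest adjusted p of these, 0.149, without liver LPtau 3.

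For LP minus NP the liver difference less the muscle difference was called for 0 of the 10 genes, where 1.97% of all genes were called. Negative values with an unadjusted p under 0.05 were found for 4 of the 10 and 6.98% of all genes, for Lrat at -1.66 (SE 0.64), Acta2 at -1.45 (SE 0.59), Pdgfrb at -1.13 (SE 0.35) and Postn at -0.59 (SE 0.28). In muscle Lrat had values of 3.26 to 3.75, near the lowest value of all arrays, 2.75, so little of a fall could show there. The lowest adjusted p was 0.101, for Pdgfrb. Des had a liver difference below the muscle difference for LPtau minus LP, at -0.27 (95% interval -0.99 to 0.44), and above it for LP minus NP, at 0.48 (95% interval -0.23 to 1.20).

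**Figure D5:**
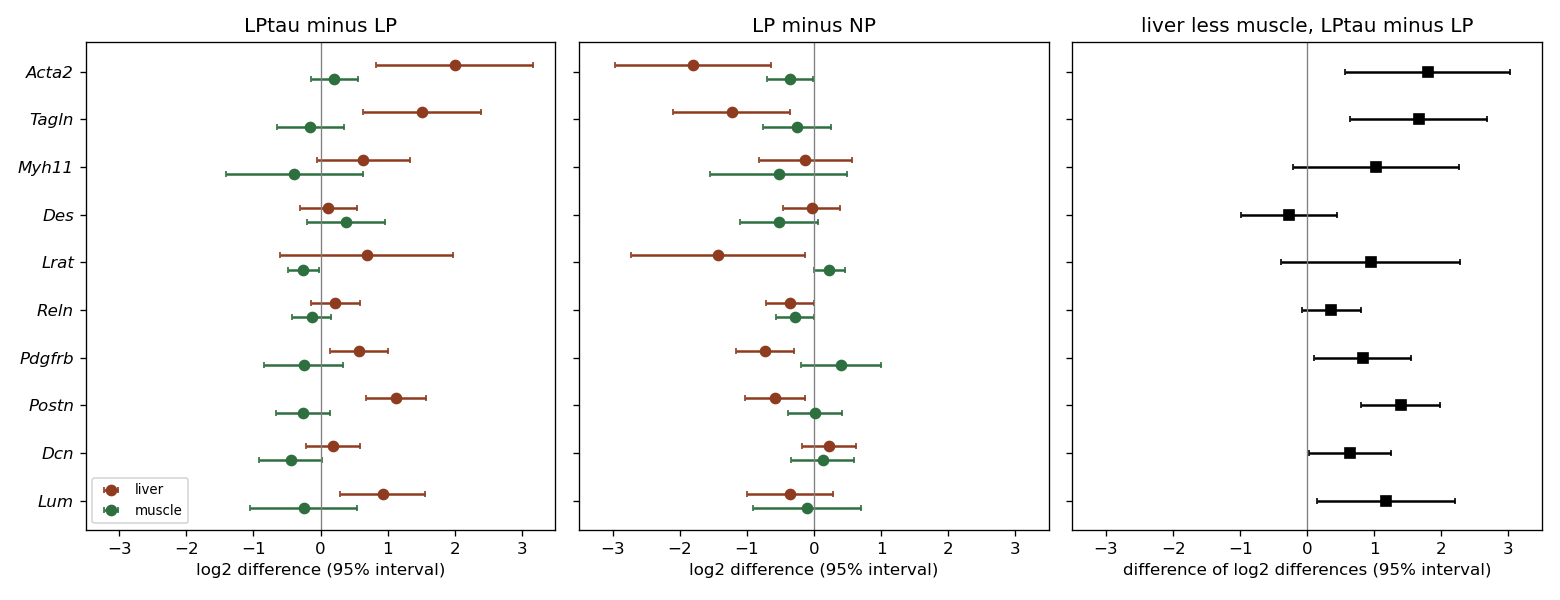
Log2 differences of the 10 genes with their 95% intervals for LPtau minus LP (left) and LP minus NP (middle) in liver and muscle, and the liver less the muscle difference of LPtau minus LP (right). Postn lies at 1.13 in liver and -0.26 in muscle, and its difference between tissues, 1.39, has an interval of 0.80 to 1.98.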

How the data were processed

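Labelled RNA of 24 samples was read on single-channel Affymetrix arrays with 45101 probe sets. The deposited log2 values were computed by the authors by RMA (R 2.7.0, as the submitters' processing notes state). The notes also name MAS5, without its role. Liver and muscle arrays were normalized separately, per the labels. The values ran from 2.75 to 15.01, and 0 value columns lacked a sample. Precision rests on 3 arrays per group, and signal over background was not analysed here.

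Of the probe sets 34945 had 1 gene symbol in the platform annotation, 932 several, 9160 none, and 64 were controls. Identifiers of 34741 were found in a gene table of GRCm38.p6, used for names. The probe set with the highest mean stood for a gene, over the 12 arrays of a tissue, or all 24 for differences between tissues. The linear models were run per tissue (limma 3.58.1, R 4.3.3: lmFit, contrasts.fit and eBayes) with 4 diet means and 6 contrasts. The joint fit had 8 group means and took the 24 arrays as independent. Calls were at a Benjamini-Hochberg adjusted p under 0.05 over 18193 genes, with "rose" and "fell" for called genes. With 3 arrays against 3, the smallest two-sided p of an exact permutation test is 0.1. The fit was tested on simulated data. Correlations of pairs used 100000 permutations. The text names all 10 genes, their ligands, receptors and relatives, up to 3 called genes of each list or else the 2 with the smallest p for LPtau minus LP in liver, and the 5 genes most like the mean of the 10. Some genes of the lists are not reported here. The genes and lists were chosen with earlier results of these data known. Alternatives changed the probe set, normalization, filter, variance model, covariate, block and arrays.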

Additional observations from a re-analysis of the deposited data

Results flagged for a closer look

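The taurine difference of Postn under low protein (LPtau minus LP) was 1.13 in liver and -0.26 in muscle. The liver difference less the muscle difference was 1.39, and its test across all genes gave an adjusted p of 0.0409 in limma. All 3 LPtau livers were above all 3 LP livers, and in muscle the groups overlapped.

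The main probe set of Reln differed in opposite directions in the tissues for LPtau minus LP, by narrow margins. In liver every LPtau array, from 10.813, was above every LP array, up to 10.769. In muscle every LPtau array, up to 7.769, was below every LP array, from 7.797. The difference was 0.22 in liver and -0.13 in muscle (adjusted p 0.734 and 0.661 in limma). The liver less the muscle difference was 0.36 (SE 0.21), which did not pass the test across all genes (adjusted p 0.426 in limma). The second Reln probe set had the opposite sign in each tissue, at -0.058 in liver and 0.112 in muscle. The share of all genes with both orders is not given here.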

How the results depend on the processing

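None of the 10 genes changed sign under any alternative that kept its main probe set, in the comparisons where it had an unadjusted p under 0.05. Single lesser probe sets did: in liver LP minus NP 0.11 for Acta2 and 0.0957 for Pdgfrb, LPtau minus LP -0.0564 and -0.0376 for the 2 lesser Acta2 probe sets, LPtau minus NP -0.0905 and LPtau minus NPtau -0.0523 for Dcn, and the interaction -0.108 for Acta2. In muscle LP minus NP the mean of the Acta2 probe sets gave 0.0637 and its lesser probe sets 0.0585 and 0.486, and LPtau minus LP gave 0.148 for Lrat. The cause was not tested.

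With a fit of only the 2 groups, 1 of the 10 genes was called in liver LP minus NP (Acta2, adjusted p 0.00971) beside 315 of all 18193 genes, 1 in its difference between tissues (Acta2, adjusted p 0.0154) beside 511 of all genes, and 0 in the difference between tissues of LPtau minus LP. With the replicate number as a block the last count was also 0 (Postn, adjusted p 0.0538), and the block changed no other count of calls among the 10. Leaving out an array gave 0 to 2 called genes in liver LP minus NP, 0 to 1 in liver LPtau minus LP, 0 to 1 in the difference between tissues of LP minus NP, 0 to 2 in that of LPtau minus LP, and 0 elsewhere. The 2 counts of 2 came without liver NPtau array 2, the array with the highest Acta2 value in liver. The count over all genes without that array is not given on its own and lies within the ranges that follow. Over all 18193 genes the same leave-outs called 21 to 2013, 0 to 269, 119 to 762 and 7 to 224 genes in these comparisons, in this order. The highest of each came without liver LP array 1. With 2 arrays left, a group is assumed to vary like the others.

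The replicate numbers share no stated origin. Liver and muscle arrays of the same diet and number had the same sex in 12 of 12 cases. Whether they came from the same pups is not stated. With diet and number as a random block over the tissues, the consensus correlation was 0.08. Same-numbered arrays had correlated deviations of -0.21 to 0.42 in liver and -0.44 to 0.34 in muscle, above 0.1 in 6 of 18 pairs in each, so the block was not used as the main fit. With the block 403 of all genes were called in liver LP minus NP (main 425), 2 in muscle LP minus NP (main 23) and 0 in muscle LPtau minus LP (main 4). Other counts over all genes that differed by over 1.5 times were, in liver LP minus NP, 244 with sex as a covariate. In liver LPtau minus LP (main 12) they were 20 with the mean of the probe sets, 0 with cyclic loess, 7 with the filter on low values, 4 with sex and 7 with only the 2 groups. In muscle LP minus NP they were 38, 65, 36, 5 and 14 in the same order, and 293 without the LP and LPtau arrays numbered 1, a choice made after seeing the data. In muscle LPtau minus LP they were 13, 67 and 8 with the first 3 of these settings, 10 with a trended robust variance, 0 with only the 2 groups and 36 without those arrays. In the difference between tissues of LPtau minus LP (main 47) they were 115 with cyclic loess, 96 with diet and number as a random block and 8 with only the 2 groups. Leaving out an array gave 21 to 2013 in liver LP minus NP, 0 to 269 in liver LPtau minus LP, 2 to 126 and 0 to 75 in these comparisons in muscle, 119 to 762 and 7 to 224 in the differences between tissues, 0 to 8 in the liver interaction (8 without LP array 1), 0 to 5 in the muscle interaction (5 without LP array 2) and 0 to 1 in liver LPtau minus NP. Under other settings, main counts of 0 over all genes were 1 in liver LPtau minus NPtau with the block and 1 to 2 in the interaction of either tissue. The filter on low values removes genes under the median level, among them Lrat. The interaction cannot be fitted with 2 groups alone.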

Other observations

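Lists of cells less close to the 10 genes are given here as values for liver. Of 9 B cell genes 4 were called lower for LP minus NP, where 2.34% of all genes were called, among them Rag1, a recombinase gene of developing lymphocytes, which fell by 2.01 (SE 0.28), Ebf1, a B cell transcription factor gene, which fell by 1.90, and Cd79b, of the B cell receptor, which fell by 1.55. Their list mean relative to NP was -0.79 to 0.10 in LPtau, -1.28 to -0.91 in LP, -0.15 to 0.06 in NPtau and -0.07 to 0.08 in NP. Of 10 macrophage genes 1 was called, Marco, a scavenger receptor gene, which rose by 1.27 (SE 0.23) for LP minus NP and differed by -0.99 for LPtau minus LP with an adjusted p of 0.185, and the list median for LP minus NP was -0.15. Of 11 erythroid genes 0 were called, and their median difference was -0.34 for LP minus NP. Of 5 bile duct genes 0 were called, with a median of -0.08.

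In muscle the mean of 10 tendon and cartilage genes relative to NP was 1.27 to 1.82 in LPtau, -1.11 to 2.37 in LP, -0.37 to 0.68 in NPtau and -0.72 to 0.37 in NP, and 0 of these genes were called for LPtau minus LP or LP minus NP. The LPtau arrays were apart from the NP arrays, while the LP arrays spanned all others.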
